A study of Rattus norvegicus with 18 samples.

Results

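Acetaminophen (APAP) left 61 transcripts of primary rat hepatocytes close to absent after 6 h. They are the transcripts with at least 5 TPM (a share of all transcripts, corrected for transcript length and sequencing depth) in each of the 3 control libraries and a mean under 1 TPM over the 4 APAP libraries. That is 61 of the 30897 transcripts listed, and 0.652% of the 9354 that met the control minimum. These members were chosen by their TPM in the control and APAP libraries, so their fall with APAP is given as a description, without a test. The rule used no library of the other 3 compounds, carbon tetrachloride (CCl4), the dioxin TCDD and trichloroethylene (TCE), and in those libraries the members stayed mostly near the control level.

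Primary hepatocytes are the metabolic cells of the liver, isolated from the animal and grown in a dish. They received acetaminophen at 3 mM, TCDD at 1 nM, TCE at 1 mM or CCl4 at a dose not given in the sources used here, all in medium with 0.1% DMSO, and the control cells received the DMSO alone. The exposure lasted 6 h, at concentrations described as causing little cell death, less albumin output and more cytochrome P450 activity; that description does not name CCl4. The control and CCl4 had 3 libraries each, and APAP, TCDD and TCE had 4 each. Strain, sex, and whether libraries came from separate animals or cultures are not stated, so a p-value here reflects only how these samples vary, and that variation may be technical.

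The 4 compounds reach the hepatocyte by different routes. Acetaminophen is oxidised by cytochromes P450 to a reactive quinone imine that consumes glutathione and binds protein. CCl4 is reduced by cytochromes P450 to a radical that attacks membrane lipids, TCDD binds the aryl hydrocarbon receptor and switches on its target genes, and TCE is metabolised by oxidation and by glutathione conjugation. The level of a transcript is set by how fast it is made and how fast it decays, and in bulk RNA a lower level per cell and fewer cells of one type cannot be told apart.

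The identifiers carry no gene names, and 0 of the 61 members matched the gene table used for names. Members are therefore described by length, level and behaviour, a few of them by identifier, and their functions are not given. Hepatocyte markers, markers of other liver cells and pathway lists could not be located either, so the labelled cell type was not checked against them. Estimated counts per library totalled 9280367 to 11479466 in 17 libraries and 6563387 in TCDD replicate 1, which listed 27416 transcripts above 0 against 19151 to 19801 elsewhere. That library is left out of the TCDD values below, which rest on replicates 2 to 4.

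The members were transcripts of modest abundance. Their mean control level ran from 5.30 to 40.6 TPM, with a median of 7.72 TPM, against a median of 21.9 TPM for all 9354 transcripts that met the control minimum. A control mean under 10 TPM was found for 42 members, and a mean of 20 TPM or more for 2. The upper limit on the APAP level favours transcripts that start low, so this difference in level follows from the rule. Behind these values stood a median of 141 estimated counts per member and control library, with a lowest value of 32 and a highest of 719.

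**Figure D1:**
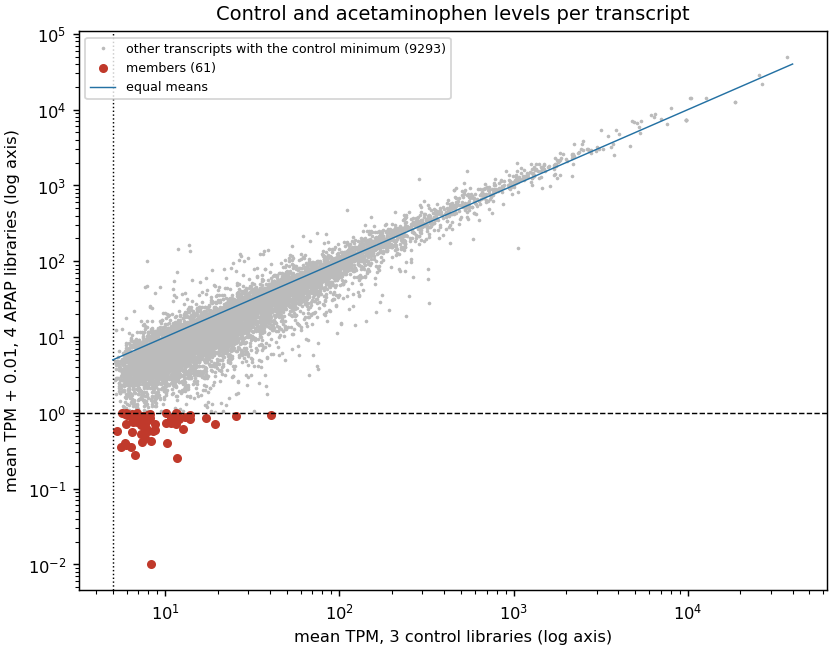
Mean TPM in the 3 control libraries (horizontal, log axis) against mean TPM plus 0.01 in the 4 APAP libraries (vertical, log axis) for the 9354 transcripts with at least 5 TPM in each control library. Red points are the 61 members, below the dashed line at 1 TPM, grey points the other transcripts, and the blue line marks equal means; the lowest red point rounds to 0 counts in the 4 APAP libraries.

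In length the members resembled other transcripts of the control cells, with fewer short ones. Lengths ran from 381 to 6781 bases with a median of 2247, against 1952 for the 9354 transcripts. Of the members 3 were under 1000 bases (4.92%, against 15.9% of the 9354), 50 of 1000 to under 4000 bases and 8 of 4000 or more (13.1%, against 13.3%). Estimated counts were whole numbers in all 18 libraries for 39 members (63.9%, against 47.0% of the 9354). A whole number shows that no reads were divided between that transcript and similar ones. The other 22 members include shared reads, which can move between related transcripts of a gene. No member (0 of 61) had the same counts as another transcript in all libraries.

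With APAP, the summed level of the 61 members was 43.8, 51.4, 40.8 and 38.5 TPM in the 4 libraries, against 569.5, 616 and 541 TPM in the 3 control libraries. Each APAP library held less than any control library, as the rule requires. The ratio of the control mean to the APAP mean had a median of 12.3 over the members, with quartiles of 8.70 and 16.2 and a lowest value of 5.75. For 1 member with 0 counts in the 4 APAP libraries, a floor of 3 counts per library stood in for the APAP mean, so its ratio is a lower bound, above the upper quartile. Among the other 60 the ratio was under 8 for 8 members, 8 to under 16 for 36, 16 to under 32 for 14 and 32 or more for 2. The median ratio was 12.8 for the 39 members with whole counts and 11.1 for the 22 with shared counts. Among the 9354 transcripts that met the control minimum, the APAP mean was 0.738 times the control mean at the median. These ratios are in TPM, which are shares of a whole. On the scale of the edgeR fit, the median log2 fold change with APAP was -0.01 for the 9338 of them tested and -3.18 for the members. Across all 16270 tested transcripts, 28.3% were called lower with APAP, 22.5% higher and 50.8% in either direction, where called means a Benjamini-Hochberg adjusted p below 0.05 in edgeR's quasi-likelihood test. The rule fixed the outcome of that contrast for the 61 members, so nothing is read from it for them.

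ENSRNOT00000080424.1, of 381 bases, was both the shortest and the most abundant member. It stood at 37.3, 41.4 and 43.0 TPM in the control libraries and at 0.505, 3.19, 0 and 0 TPM in the 4 APAP libraries. Those APAP values came from 1, 5, 0 and 0 counts, and the control values from 70, 69 and 78. In so short a transcript a single read is worth over 0.5 TPM, so its APAP level is known only roughly. The other groups did not share the loss: this transcript had 41.0, 36.7 and 46.0 TPM with CCl4, 58.6, 52.4 and 37.4 TPM in TCDD replicates 2 to 4, and 53.5, 47.5, 48.6 and 57.0 TPM with TCE.

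ENSRNOT00000021968.4, of 3029 bases and with whole counts, was the next most abundant. It had 27.4, 27.4 and 21.4 TPM in the control and 0.753, 1.59, 0.466 and 0.755 TPM with APAP, a ratio of means of 28.5. Its 560 to 719 control counts against 12 to 35 with APAP make this one of the better measured losses. It stood at 20.7, 21.8 and 22.7 TPM with CCl4 and at 28.6 to 35.0 TPM with TCE. In TCDD replicates 2 and 3 it had 32.3 and 35.0 TPM but in replicate 4 only 15.6 TPM, below each control library. None of the 6 contrasts among the control, CCl4, TCDD and TCE called these 2 transcripts (edgeR adjusted p from 0.464 to 1 for both).

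A member with a high ratio and the member at 0 were singled out after their values were seen. ENSRNOT00000011704.7, of 1896 bases, had the highest ratio among the 60 members with APAP counts above 0, 48.4, with 12.7, 13.2 and 9.23 TPM in the control and 0.238, 0.302, 0.129 and 0.299 TPM with APAP. The rule itself keeps the control and APAP libraries of every member apart. The APAP values here rest on 2 to 5 counts, and some reads were shared. ENSRNOT00000005325.7, of 1236 bases, rounded to 0 counts in the 4 APAP libraries and had 5.40, 8.14 and 11.2 TPM in the control. Against a floor of 3 counts in each APAP library, it was at least 26.1-fold lower, which covers counting error only. This transcript was also at 0 counts in TCDD replicate 1, which is outside the fit. With TCE this transcript had the highest CV of the members (the SD as a percent of the mean, 57.2%), at 1.45 TPM in TCE replicate 4 against 13.1, 13.2 and 12.9 TPM in the other TCE libraries, and it too has shared reads.

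Within the APAP group the members varied more than within the other groups. The coefficient of variation (CV) had a median over members of 30.1% with APAP, 11.2% in the control, 9.64% with CCl4, 14.7% with TCDD and 11.2% with TCE. Counting alone, at the counts each member had, would give a median CV of 25.2% with APAP and 8.32% in the control. In an APAP library a member had a median of 13.5 counts. In every APAP library at once, 28 members were under 1 TPM, and taken singly, 50, 42, 53 and 56 members were under 1 TPM in APAP replicates 1 to 4. Counts rounding to 0 in at least 1 APAP library were found for 8 members.

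Libraries left out of the rule gave values that it had not used. When APAP replicate 1, 2, 3 or 4 was left out, the other libraries chose 64, 68, 60 or 57 transcripts. The left-out library then had a level below the lowest control value for 63 of 64, 67 of 68, 59 of 60 and 57 of 57 of them, and under 1 TPM for 47, 37, 46 and 48. Median levels in the left-out library were 0.859, 0.982, 0.723 and 0.703 TPM. The highest values there were 12.3, 15.6, 16.998 and 4.89 TPM. The left-out library was thus below the control for nearly all of the chosen transcripts, though not always under 1 TPM. The control values in that comparison were part of the rule, and the other APAP libraries had chosen these transcripts for a low level. A matching share of all transcripts that met the control minimum is not given. Left-out counts are therefore descriptions, without a test, here and for the control side. On the control side, the rule without control replicate 1 or 2 chose 68 transcripts each, and without control replicate 3 it chose 102. Of these 102, the 61 with 5 TPM or more in control replicate 3 are by definition the members themselves. In that library 96 of the 102 lay above their highest APAP value. By the length of these lists, control replicate 3 decided membership more than the other control libraries did.

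Values close to the thresholds show how sharp the limits are. The members with the highest APAP means were at 0.992, 0.991 and 0.986 TPM, and the nearest transcripts outside were at 1.01, 1.01 and 1.03 TPM. The third of those outside had 19.1, 20.7 and 18.3 TPM in the control, more than most members. The lowest control values among members were 5.05, 5.08 and 5.17 TPM, and the nearest outside were 4.99, 4.98 and 4.92 TPM. Another 167 transcripts met the control minimum and had an APAP mean of 1 to under 2 TPM. A ratio at least as large as the members' median of 12.3 was found in 22 transcripts outside the list, with control means of 16.9 to 240 TPM. They were as strongly reduced in proportion but remained at 1.03 to 18.9 TPM with APAP.

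**Figure D2:**
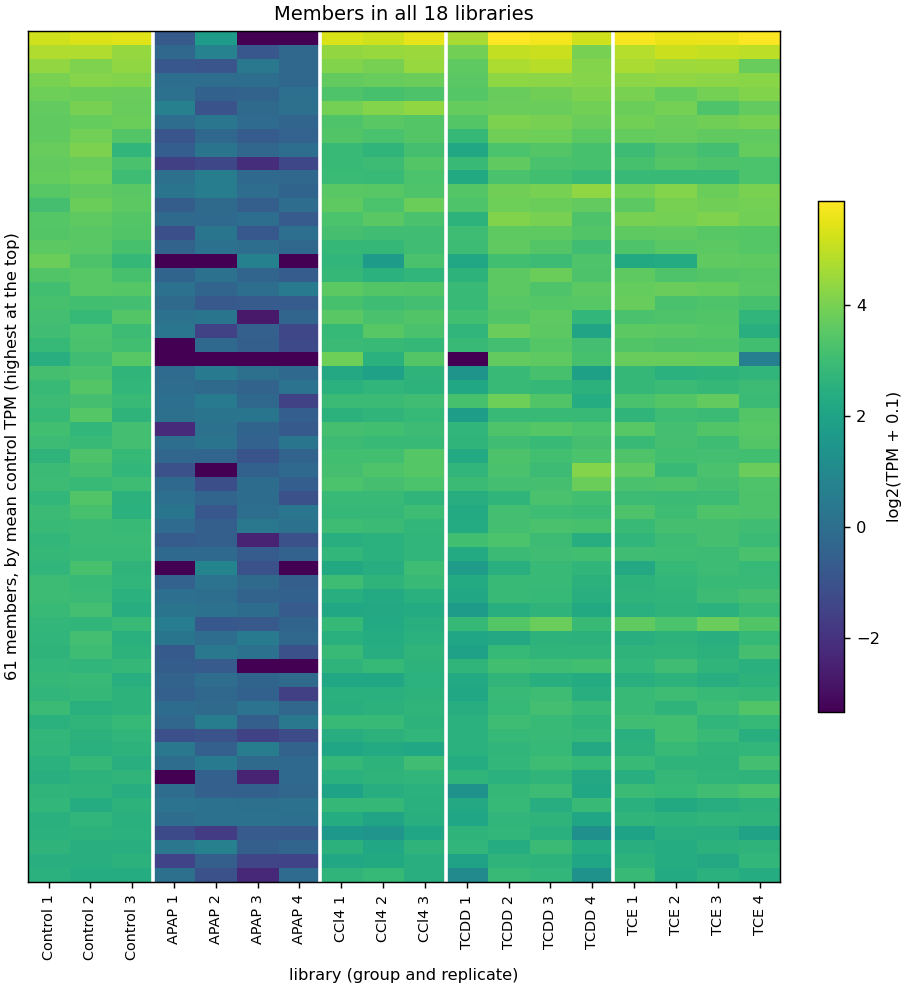
Level of each of the 61 members (rows, from the highest mean control TPM at the top) in each of the 18 libraries (columns, named by group and replicate), coloured by log2(TPM + 0.1). The 4 APAP columns are dark in nearly all rows, the columns of the control, CCl4, TCDD replicates 2 to 4 and TCE are of like brightness, and TCDD replicate 1 is slightly darker.

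Outside APAP and the left-out TCDD replicate 1, the members were present in every library. In each of the 10 libraries of CCl4, TCDD replicates 2 to 4 and TCE, each of the 61 members lay above 1 TPM and above its highest APAP value. The lowest value among them was 1.45 TPM, and 42 members had 5 TPM or more in the 10 libraries. The APAP values were part of the rule, which favours lying above them, and matching shares of the 9354 are not given for these counts. Summed over the members, the level was 513, 489 and 552 TPM with CCl4, 665, 665 and 553 TPM with TCDD, and 628, 632, 637 and 636 TPM with TCE. CCl4 overlapped the control range of 541 to 616 TPM at its upper end, TCDD replicate 4 fell inside that range, and the TCE libraries lay just above it. The group mean was within 1.5-fold of the control mean for 55 members with CCl4 (92.6% of the 9354 transcripts), 59 with TCDD (95.5% of the 9354) and 60 with TCE (95.9% of the 9354).

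CCl4 was compared with the control to see whether a solvent that is also activated in the hepatocyte moved these transcripts. The test called 1 of the 61 members, lower with CCl4, against a background of 1.89% of all tested transcripts called lower, 2.22% called higher and 4.12% in either direction (edgeR quasi-likelihood test). The median log2 fold change of the members was -0.06, from -0.77 to 0.46, against -0.01 for all tested transcripts. For 51 members the 95% interval of the difference lay within 2-fold of the control. Because the control libraries were part of the rule, comparisons with the control are descriptions of these members, and the same holds for TCDD and TCE. The count rests on single libraries: it was 0 without control replicate 1, control replicate 2 or CCl4 replicate 2, 2 when APAP replicate 4, TCE replicate 4 or TCDD replicate 2 was left out, and 5 when TCDD replicate 4 or control replicate 3 was. In the same order, all tested transcripts called were 108 of 16649, 143 of 16653 and 120 of 16657, then 710 of 16204, 931 of 16171 and 612 of 16647. They were 1041 of 16652 and 1828 of 16668 in the last 2 fits.

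The called member was ENSRNOT00000042973.4, of 3797 bases and with whole counts. It had 10.2, 11.2 and 9.10 TPM in the control and 6.81, 5.76 and 6.53 TPM with CCl4, so the groups did not overlap. The log2 fold change was -0.58 ± 0.11 (SE, n = 3 each; edgeR adjusted p = 0.0113), a fall far smaller than that with APAP, where it stood at 0.678, 0.968, 0.704 and 0.538 TPM. The call was lost without control replicate 1 (edgeR adjusted p = 0.0586), control replicate 2 (0.0594) or CCl4 replicate 2 (0.0715).

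For TCDD replicates 2 to 4 the test called 0 of the 61 members (edgeR quasi-likelihood test). Of all tested transcripts 0.670% were called higher, 1.01% lower and 1.68% in either direction. An unadjusted p under 0.05 was found for 6 members and for 3205 of all 16270 tested transcripts. DESeq2 called 2 members and 1222 of the 9940 transcripts to which it gave an adjusted p. The median log2 fold change of the members was 0.02, from -0.56 to 0.51, and 53 members had an interval within 2-fold of the control. Without control replicate 3 the count was 3, and 1697 of all 16668 tested transcripts were called. ENSRNOT00000077928.1, of 4635 bases and with shared reads, had the smallest adjusted p. It stood at 12.8, 14.3 and 7.98 TPM in the control and at 9.34, 8.36 and 7.29 TPM with TCDD, with overlap at control replicate 3. Its log2 fold change was -0.56 ± 0.16 (SE, n = 3 each; edgeR adjusted p = 0.0773), and the adjusted p was 0.00698 without control replicate 3.

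TCE gave 1 call among the 61 members, against 2.70% of all tested transcripts called lower, 2.08% higher and 4.79% in either direction (edgeR quasi-likelihood test). It was ENSRNOT00000077928.1 again, lower in TCE, with 7.24, 7.49, 7.15 and 9.64 TPM. TCE replicate 4 lay above control replicate 3, so the groups overlapped. The log2 fold change was -0.64 ± 0.15 (SE, n = 3 and 4; edgeR adjusted p = 0.0267). The call was lost without control replicate 1 (edgeR adjusted p = 0.159), control replicate 2 (0.188) or TCE replicate 1, 2 or 3 (0.0729, 0.0732 and 0.0808), and with scaling to total counts (0.0525), all 18 libraries (0.0607), the 2 groups alone (0.128) or a replicate block by title number (0.0619) or table-name number (0.0691). The count was 2 without control replicate 3 (2028 of all 16668 tested transcripts called) or TCDD replicate 4 (1080 of 16652). The median log2 fold change of the members with TCE was 0.03, from -0.64 to 0.62, and 55 members had an interval within 2-fold of the control.

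**Figure D3:**
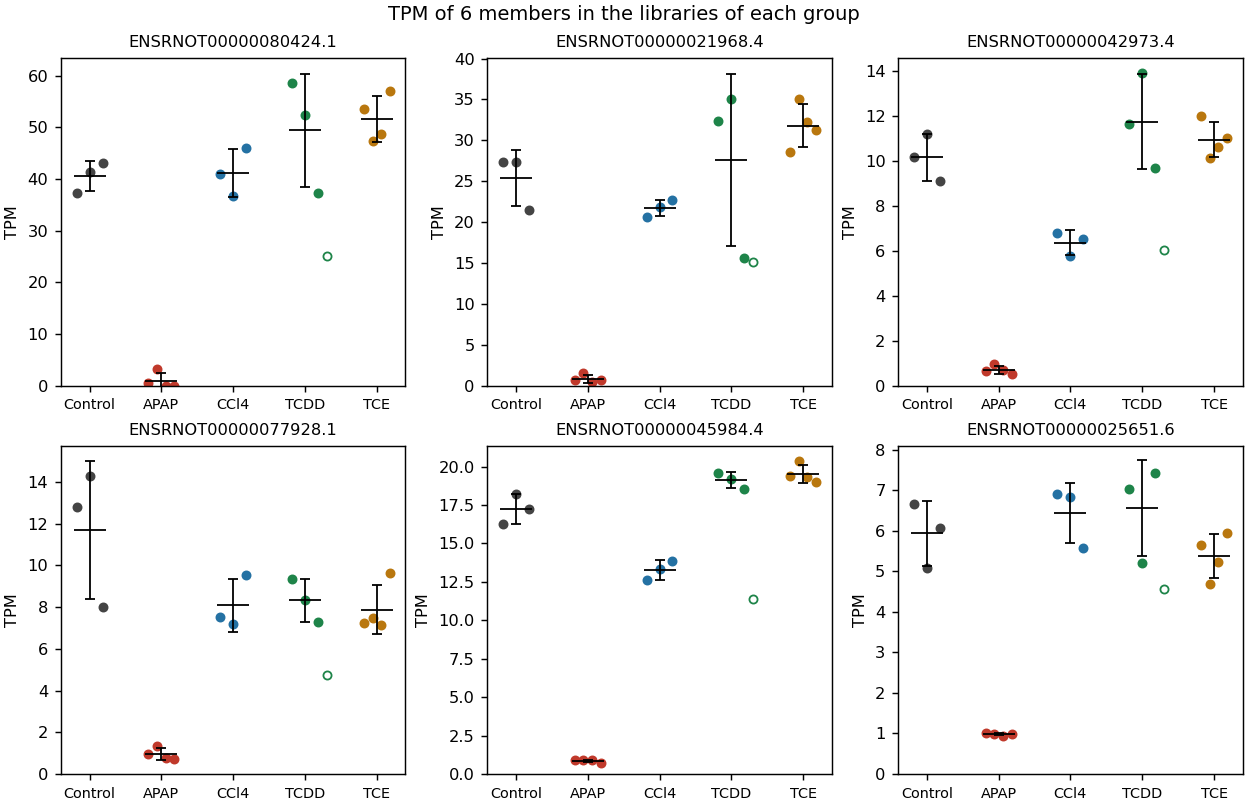
TPM of 6 members in the control, APAP, CCl4, TCDD and TCE libraries. Filled points are libraries, black bars their mean and SD, and open points TCDD replicate 1, which is outside the mean. APAP points lie below the control points in each panel, as the rule requires. In ENSRNOT00000042973.4 and ENSRNOT00000045984.4 the CCl4 points lie below the control, TCE and filled TCDD points.

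CCl4, TCDD and TCE were then set against one another, and no library of the rule enters these differences directly. Doses were not matched between them, and that of CCl4 is not given. CCl4 and TCE differed for 2 of the 61 members, both lower with CCl4, against 0.596% of all tested transcripts called lower, 1.29% higher and 1.89% in either direction (edgeR quasi-likelihood test). ENSRNOT00000042973.4 had 12.0, 10.1, 10.6 and 11.0 TPM with TCE, all above its CCl4 values, a log2 difference of -0.61 ± 0.11 (SE, n = 3 and 4; edgeR adjusted p = 0.00644), which did not pass without CCl4 replicate 2 (0.0599). ENSRNOT00000045984.4, of 2669 bases and with whole counts and named after its values were seen, had 12.6, 13.3 and 13.9 TPM with CCl4 and 19.4, 20.3, 19.3 and 19.0 TPM with TCE. That is a log2 difference of -0.38 ± 0.07 (SE, n = 3 and 4; edgeR adjusted p = 0.0139), and it did not pass without CCl4 replicate 1 (0.0954) or 3 (0.0715), in a fit of the 2 groups alone (0.0512) or with a replicate block by table-name number (0.0506). The control values of this second transcript were 16.2, 18.2 and 17.3 TPM, between those of CCl4 and TCE, and its APAP values were 0.903, 0.886, 0.889 and 0.741 TPM. The number of members called was 1 without any single CCl4 library and 4 without TCDD replicate 4. Without CCl4 replicate 1, 2 or 3, all tested transcripts called were 124 of 16674, 100 of 16657 and 134 of 16640. Without TCDD replicate 4 they were 589 of 16652.

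Against TCDD replicates 2 to 4, CCl4 differed for 1 member, again lower with CCl4, against 0.203% of all tested transcripts called lower, 0.787% higher and 0.990% in either direction (edgeR quasi-likelihood test). ENSRNOT00000042973.4 had 11.6, 13.9 and 9.69 TPM with TCDD, all above its CCl4 values, and a log2 difference of -0.70 ± 0.11 (SE, n = 3 each; edgeR adjusted p = 0.00471). In a fit of those 2 groups alone it did not pass (edgeR adjusted p = 0.0796). The count was 2 without control replicate 3 (183 of all 16668 tested transcripts called) or TCE replicate 4 (260 of 16171).

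Between TCDD replicates 2 to 4 and TCE the edgeR quasi-likelihood test called 0 members and 0 of all 16270 tested transcripts, and DESeq2 also called 0 members. An unadjusted p under 0.05 was found for 0 members and for 412 of the 16270 transcripts. The log2 differences of the members ran from -0.35 to 0.29. The 95% interval lay within 2-fold for 56 members and within 1.5-fold for 42, so for the others a difference of that size cannot be set aside at this depth. ENSRNOT00000025651.6, of 2393 bases, came first by p, at 7.04, 5.20 and 7.43 TPM with TCDD and 5.65, 4.69, 5.22 and 5.94 TPM with TCE. Its groups overlapped and its log2 difference of 0.29 had an interval from -0.06 to 0.63 (edgeR adjusted p = 1).

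The direction of the members between compounds is given without a test. With CCl4, 41 of the 61 members had a log2 difference below 0 against TCE and 39 against TCDD, where 51.7% and 50.7% of all tested transcripts lay below 0. In TPM, 24 members were lower in each CCl4 library than in any TCE library, against a background of 23.2% of tested transcripts and 31.6% of the 9354 that met the control minimum. Higher in each CCl4 library was 1 member, against 2.13% of tested transcripts and 2.53% of the 9354. Against TCDD, 18 were lower in each CCl4 library, against 23.7% of tested transcripts and 29.6% of the 9354, so that count is near its background. Again 1 was higher, against 2.44% and 2.63%. Between TCDD and TCE 0 members were apart in either direction, against 1.59% lower and 1.83% higher with TCDD. TPM are shares of a whole, and the background counts lean the same way.

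Length went with the position of a member relative to the control. Of the 20 members of 3000 bases or more, 20 had a CCl4 mean TPM below the control mean, as did 82.6% of the 9354 transcripts in that length class. Among the 25 members under 2000 bases, 13 did, as did 50.3% of the 9354 in theirs. Across the 61 members, the rank correlation of length with the ratio of mean TPM to the control mean was -0.51 for CCl4, -0.36 for TCDD and -0.36 for TCE, and across the 9354 it was -0.37, -0.39 and -0.45. These correlations are across transcripts of the same libraries, which also share the control, and are descriptions. In the edgeR fit, the median log2 fold change with CCl4 was -0.25 for members of 3000 bases or more and 0.05 for those under 2000. There 17 of the 20 longer and 9 of the 25 shorter members lay below 0, fewer than in TPM. Matching shares of the 9354 are not given for the fit. With the trend of each library with transcript length removed, the longer members were at -0.11 with CCl4 (14 of 20 below 0) and the shorter at -0.01 (14 of 25). The difference between CCl4 and TCE for the longer members hardly moved, at -0.21 before and -0.20 after.

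**Figure D4:**
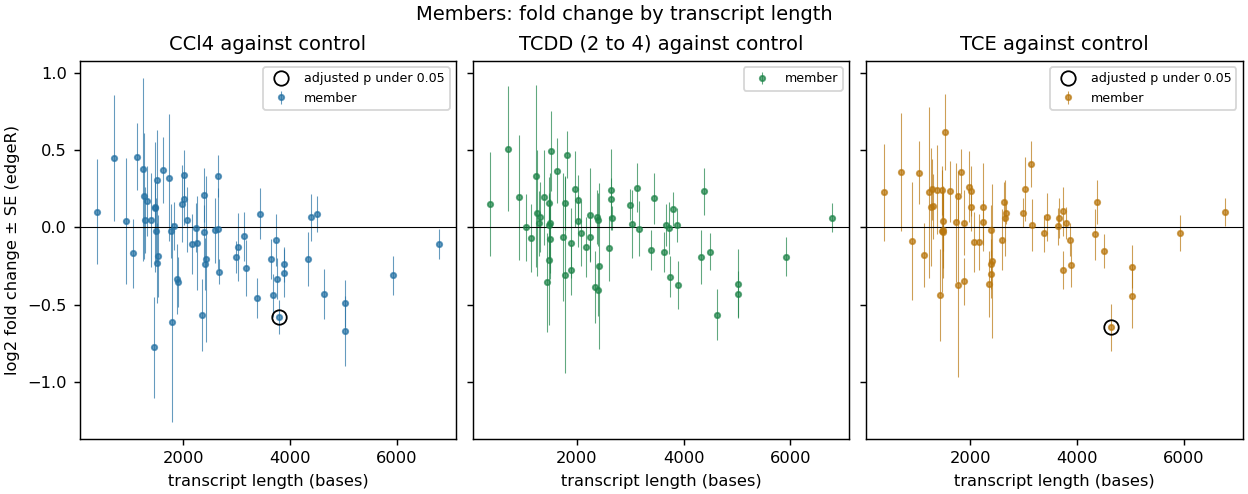
Transcript length (horizontal, bases) against the edgeR log2 fold change with its SE (vertical) for the 61 members with CCl4, TCDD replicates 2 to 4 and TCE, each against the control. Circles mark the 1 member called with CCl4 and the 1 called with TCE; longer members lie lower in the CCl4 panel, and the axis spans only a small part of the fall seen with APAP.

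The control libraries were not alike either. Control replicate 3 was the lowest of the 3 for 32 members, and for 53.4% of the 9354 transcripts, so that count is near its background. TCDD replicate 4 was the lowest of TCDD replicates 2 to 4 for 40 members, and for 57.1% of the 9354. Both libraries changed counts of called members when left out, as did other libraries given above. Their part in the comparisons with the control was not tested further.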

How the data were processed

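The data are 18 RNA libraries from primary rat hepatocytes. Per the submitters' processing notes the authors used kallisto 0.43, and the deposited tables hold its estimated counts and TPM (estimated counts over effective length, scaled to the same sum in each library) for 30897 transcripts. The genome build, transcript annotation and layout of the reads were not given in the sources used here. Deposited TPM chose the members and are printed as levels. The members and lists were chosen with earlier results of these data known.

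For tests, estimated counts were rounded and filtered with filterByExpr, which kept 16270 transcripts and all 61 members. One model held 17 libraries, without TCDD replicate 1 (edgeR 4.0.16 in R 4.3.3, TMM, robust quasi-likelihood). A transcript was called where its p, Benjamini-Hochberg adjusted across all tested, was below 0.05; SEs come from the fold change and F. Replicate pairs differed by more than sampling noise. Counts called whole were within 0.000001 of a whole number.

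Named members are the 2 with the highest control mean and, per contrast, the called member with the largest change in each direction or, with none called, that with the smallest adjusted p. Gene lists and cell markers set for named genes could not be used. Alternatives were other scaling, no filter, DESeq2 1.42.0, all 18 libraries, the compared groups alone, replicate blocks, length trends removed, each library left out and other thresholds of the rule.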

Additional observations from a re-analysis of the deposited data

Results flagged for a closer look

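Gaps between 1 library and the other 3 of a group were checked in 21 sets of 4 values (6 named members and the members' sum, with APAP, TCDD and TCE), and 4 stood out; chance gives about 1 in 20 sets. ENSRNOT00000080424.1 was at 3.19 TPM in APAP replicate 2, from 5 counts, far above the other APAP libraries. ENSRNOT00000077928.1 was at 9.64 TPM in TCE replicate 4, above the other TCE libraries. ENSRNOT00000045984.4 was at 0.741 TPM in APAP replicate 4 and at 11.4 TPM in TCDD replicate 1, in both cases below the rest of its group. TCDD replicate 1 is outside the fit.

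Effects of compounds differed, by a test of the difference itself, for 2 members. ENSRNOT00000042973.4 was lower with CCl4 than with TCE (log2 difference -0.61) and than with TCDD (-0.70), and ENSRNOT00000045984.4 was lower with CCl4 than with TCE (-0.38). Of all tested transcripts, 0.596% were called lower with CCl4 than with TCE, and 0.203% lower than with TCDD. Each of these member calls was lost in at least 1 alternative, as given above, and doses were not matched.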

How the results depend on the processing

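The list depends on its thresholds: it held 11 transcripts with a control minimum of 10 TPM, 397 with 2 TPM, 11 with an APAP mean under 0.5 TPM, 228 under 2 TPM and 28 with every APAP library under 1 TPM. Leaving out 1 control or APAP library gave 57 to 102. Scaling to total counts called 2 members for CCl4, 0 for TCE, 4 for CCl4 against TCE and 2 for CCl4 against TCDD. Of all 16270 tested transcripts it called 678, 1217, 529 and 245 in these comparisons. DESeq2 called 4 for CCl4, 2 for TCDD, 5 for CCl4 against TCE and 3 for CCl4 against TCDD. Over all transcripts with an adjusted p it called 1333 of 12353, 1222 of 9940, 678 of 11870 and 390 of 9940. All 18 libraries gave 1 for TCDD and 0 for TCE, where 717 and 191 of all 16473 tested transcripts were called. The compared groups alone gave 2 for CCl4, 0 for TCE and 0 for CCl4 against TCDD. Among all tested transcripts those fits called 433 of 14932, 16 of 15280 and 55 of 15016. With 1 library left out the counts ran from 0 to 5 for CCl4, 0 to 3 for TCDD, 0 to 2 for TCE, 1 to 4 for CCl4 against TCE, 1 to 2 for CCl4 against TCDD and 0 to 0 for TCDD against TCE. The calls over all tested transcripts moved too: from 108 to 1828 for CCl4, 0 to 1697 for TCDD and 7 to 2028 for TCE. They ran from 100 to 589 for CCl4 against TCE and from 65 to 354 for CCl4 against TCDD. What moved the numbers of members called was not tested. The other alternatives stayed within 1.5 times.

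With title numbers as a replicate block the fit called 2 members for CCl4 and 4 for CCl4 against TCE (538 and 339 of all 16270 tested transcripts). With the numbers in the deposited tables' names it called 0 for TCE and 1 for CCl4 against TCE (393 and 187 of the 16270). Deviations of same-numbered libraries from their group means correlated at -0.20 to 0.13, and those of differently numbered ones at -0.20 to 0.17. With 3 or 4 libraries per group this cannot settle whether same-numbered libraries share an animal or culture.

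Small differences that passed in no setting changed sign. ENSRNOT00000080424.1 went to -0.052 (CCl4) and -0.022 (TCDD) with the length trend removed and to 0.049 for CCl4 against TCDD with all 18 libraries. With 1 library left out it ran from -0.18 to 0.075 for CCl4 against TCDD (lowest without TCDD replicate 4, highest without 2) and from -0.20 to 0.054 for TCDD against TCE (highest without TCDD replicate 4). ENSRNOT00000021968.4 with TCDD went to -0.059 with all 18 libraries and -0.057 with the block by table name. It ran from -0.15 (without TCDD replicate 3) to 0.28, with -0.042 when control replicate 3 and -0.099 when TCDD replicate 2 was left out. Against TCDD, CCl4 ran from -0.41 to 0.022 (highest without TCDD replicate 3), and TCDD against TCE from -0.40 to 0.036 (highest without TCDD replicate 4). The lower call of ENSRNOT00000042973.4 kept its sign in all 26 alternatives of each comparison. In the APAP libraries a median of 13.5 counts per member limits the precision of single levels.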

Other observations

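TCDD replicate 1 is outside the comparisons of the report and entered only the alternative fit of all 18 libraries and the check of gaps within groups. The members summed to 401 TPM there, below the 553 to 665 TPM of TCDD replicates 2 to 4 and far above the APAP libraries. For 53 of the 61 members its value lay below each of TCDD replicates 2 to 4, as it did for 82.8% of the 9354 transcripts that met the control minimum. ENSRNOT00000005325.7, which rounded to 0 counts in the 4 APAP libraries, was at 0 counts in that library too.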
